A study of Mus musculus with 6 samples.

Results

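The enzymes that carry one-carbon units on folate were followed in the livers of WT and Vps15LKO mice. The 8 genes Mthfd1, Mthfd1l, Mthfd2, Mthfd2l, Shmt1, Shmt2, Aldh1l1 and Aldh1l2 were chosen by name as the interconverting folate enzymes of the cytosol and the mitochondrion, out of 56305 genes in the table, and all 8 were found in it. Vps15LKO mice carry floxed Vps15 alleles and the AlbCre transgene, and Vps15 is the regulatory subunit of the class 3 PI3K complex. The albumin promoter that drives Cre is active in hepatocytes, and deletion in the other cells of the liver was not measured in these data. The 3 WT and 3 Vps15LKO animals were males of 5 weeks, fed ad libitum, and their livers were taken at ZT6, that is 6 h after lights on. Each liver gave 1 polyA-enriched RNA library, and the labels do not state the Cre and floxed alleles of the animals called WT.

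Folate enzymes form a cycle through both compartments. In mitochondria serine gives up a carbon to tetrahydrofolate, which is oxidized and released as formate, and in the cytosol that formate is put back on tetrahydrofolate for the synthesis of purines, thymidylate and methionine. Adult liver is known for large amounts of the cytosolic enzymes and of Shmt2, whereas Mthfd2 is known as an enzyme of embryonic, dividing and tumour cells.

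Transcripts of the cytosolic enzymes Mthfd1, Shmt1 and Aldh1l1 and of mitochondrial Shmt2 fell in Vps15LKO livers, and those of mitochondrial Mthfd1l, Mthfd2, Mthfd2l and Aldh1l2 rose. The 4 falls lay between 2.24-fold and 3.48-fold. The rises spanned 1.73-fold for Mthfd2l to 15.4-fold for Mthfd1l. A gene was called where limma gave an adjusted p under 0.05 (Benjamini-Hochberg) and a fold of at least 1.2, and by this rule 4 of the 8 members were called higher and 4 lower. The genotypes differed across the transcriptome, since 66.5% of the 15430 genes tested were called, 33.5% higher and 33% lower. The values of the 2 genotypes did not overlap for any of the 8 members, nor for 73.2% of the genes tested (36.4% higher and 36.8% lower in all 3 Vps15LKO livers). Mthfd1l and Aldh1l2 were tested through the Vps15LKO livers alone, so their calls and lack of overlap carry no weight. In bulk RNA, fewer cells of a type and less RNA per cell cannot be told apart.

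Serine hydroxymethyltransferases move the carbon of serine to tetrahydrofolate and leave glycine. Shmt1, the cytosolic enzyme (GRCm38 chr11:60788104-60811718, minus strand), had normalized counts of 3714, 3441 and 2749 in WT livers 1, 2 and 3, against 1003, 1249 and 753 in Vps15LKO livers 1, 2 and 3. Every Vps15LKO liver lay below every WT liver. The mean fell from 3301 ± 498 to 1002 ± 248 normalized counts (SD, n = 3 each), which was 3.30-fold lower, with a log2 fold change of −1.74 (SE 0.19) and an adjusted p of 6.75e-05 in limma. Shmt2, the mitochondrial enzyme (chr10:127517123-127522444, minus strand), was measured at 6330.1, 6017 and 5307 normalized counts in WT and at 2547, 3172 and 2153 in Vps15LKO livers. The groups were again apart, and the log2 fold change was −1.18 (SE 0.15, adjusted p = 0.000168 in limma), a level 2.24-fold lower. Shmt2 was thus the mitochondrial member that fell, and its change was the smallest of the 4 falls.

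Mthfd1 is the cytosolic enzyme that joins formate to tetrahydrofolate and interconverts the oxidation states of the bound carbon. Mthfd1 (chr12:76255298-76319803, plus strand) was measured at 4260.3, 4563 and 3703 normalized counts in WT livers and at 1301, 1606 and 1132 in Vps15LKO livers. No liver of either genotype came near the other group. Its WT mean was 4175 ± 436 and its Vps15LKO mean 1347 ± 240 (SD), which was 3.10-fold lower, with a log2 fold change of −1.64 (SE 0.14, adjusted p = 2.12e-05 in limma).

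Mthfd1l, Mthfd2 and Mthfd2l carry the same steps in mitochondria, where Mthfd2 and Mthfd2l oxidize the carbon bound to folate and Mthfd1l releases it as formate. Mthfd1l (chr10:3973118-4167081, plus strand) had few reads in WT livers, at 15.9, 13.7 and 12.1 normalized counts from 12, 11 and 9 reads. In Vps15LKO livers it was measured at 237, 164 and 242 normalized counts. The 3 Vps15LKO livers all lay far above WT, and the ratio of the means was 15.4-fold, with a log2 fold change of 3.83 (SE 0.21, adjusted p = 2.46e-06 in limma). Of all genes tested, 2.53% had a larger rise. Mthfd1l was tested through the Vps15LKO livers alone, so neither its p nor this rank carries weight.

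Mthfd2 (chr6:83305691-83325908, minus strand) was measured at 23.9, 17.5 and 40.4 normalized counts in WT and at 99.3, 113 and 87.7 in Vps15LKO livers. WT replicate 3 was the highest WT liver and still lay under every Vps15LKO liver. The ratio of the means was 3.67-fold, and the log2 fold change was 1.91 (SE 0.29, adjusted p = 0.000479 in limma). Mthfd2l (chr5:90931117-91021368, plus strand), the paralogue of Mthfd2, was measured at 33.1, 30.0 and 32.4 normalized counts in WT and at 42.8, 46.2 and 76.4 in Vps15LKO livers. The WT livers were close to each other, and Vps15LKO replicate 3 stood above the other two. Its log2 fold change was 0.73 (SE 0.25, adjusted p = 0.031 in limma), and 25.4% of the genes tested rose more. The call was lost without Vps15LKO replicate 3, where the log2 fold change was 0.47 (adjusted p = 0.104 in limma). It was also lost without any 1 of the WT livers, with log2 fold changes of 0.69 to 0.76 (adjusted p = 0.0507 to 0.0784 in limma). Upper-quartile scaling (0.63, adjusted p = 0.0515 in limma) and quantile normalization (0.07, adjusted p = 0.817 in limma) lost the call too.

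The last pair oxidizes formyl-tetrahydrofolate to carbon dioxide and so removes carbon from the cycle. Aldh1l1, the cytosolic enzyme (chr6:90486427-90600203, plus strand), was the most abundant member per kilobase of exon and had the highest counts, at 28065, 30575 and 23904 normalized counts in WT and 8203, 9335 and 6202 in Vps15LKO livers. The groups were apart, and the fall was 3.48-fold, with a log2 fold change of −1.81 (SE 0.19, adjusted p = 5.51e-05 in limma). Aldh1l2, the mitochondrial enzyme (chr10:83487450-83534140, minus strand), was measured at 3.98, 9.99 and 6.74 normalized counts in WT livers, from 3, 8 and 5 reads. In Vps15LKO livers it was measured at 69.5, 76.2 and 90.5 normalized counts, so that all 3 lay above WT. Aldh1l2 too was tested through the Vps15LKO livers alone, so its p carries no weight. The ratio of the means was 11.4-fold, and the log2 fold change, which a pseudocount of 1 pulls toward 0 at such low values, was 3.40 (SE 0.33, adjusted p = 3.68e-05 in limma).

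**Figure D1:**
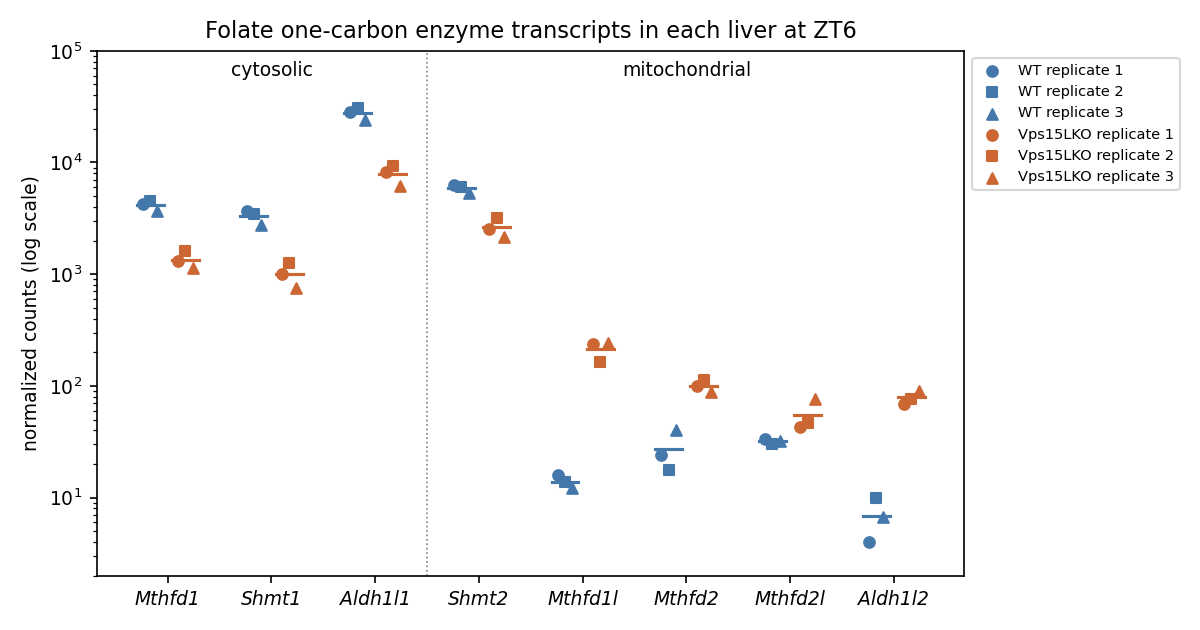
Normalized counts of the 8 enzymes in each liver, on a log axis, with points for the 3 WT and 3 Vps15LKO livers and a line at each group mean. The 4 abundant transcripts lie lower in every Vps15LKO liver, Aldh1l1 at 6202 to 9335 against 23904 to 30575, and the 4 scarce ones lie higher.

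Mthfd1l and Aldh1l2 passed the filter on low values (a normalized count of 20 or more in 3 or more livers) through the Vps15LKO livers alone, so once tested they had to differ. Several members share bases with a gene transcribed from the opposite strand. Whether strand was used in the counting is not given in the sources used here. The exons of Aldh1l2 share 1056 bases with D10Wsu102e, whose normalized counts were 330.3 to 408 in WT livers and 459 to 481 in Vps15LKO livers. Those of Aldh1l1 share 499 bases with Gm15756, which fell with it, from normalized counts of 2662 to 3425 to counts of 759.6 to 995. The overlaps of Shmt1 with Smcr8 (184 bases), Mthfd1 with Gm47525 (37 bases) and Shmt2 with Ndufa4l2 (32 bases) were shorter.

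Library scaling mattered for the size of these changes. The 6 libraries held 16137093 to 18110223 reads on genes, while the size factors recovered from the deposited values were 0.742 to 0.801 in WT and 1.23 to 1.41 in Vps15LKO livers. Scaling to total reads instead moved the median log2 fold change of all genes up by 0.72 and left 77.8% of genes called, 66.7% higher and 11.1% lower. All 8 members kept their direction and their call under that scaling, with log2 fold changes of −0.92 for Mthfd1, −1.01 for Shmt1, −1.08 for Aldh1l1 and −0.45 for Shmt2. The rises were then 4.53 for Mthfd1l, 4.06 for Aldh1l2, 2.62 for Mthfd2 and 1.43 for Mthfd2l. Quantile normalization gave 4 members lower and 3 higher, where 68% of all genes were called, 37.6% lower and 30.4% higher, and left Aldh1l1 at −0.69 and Shmt2 at −0.57.

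**Figure D2:**
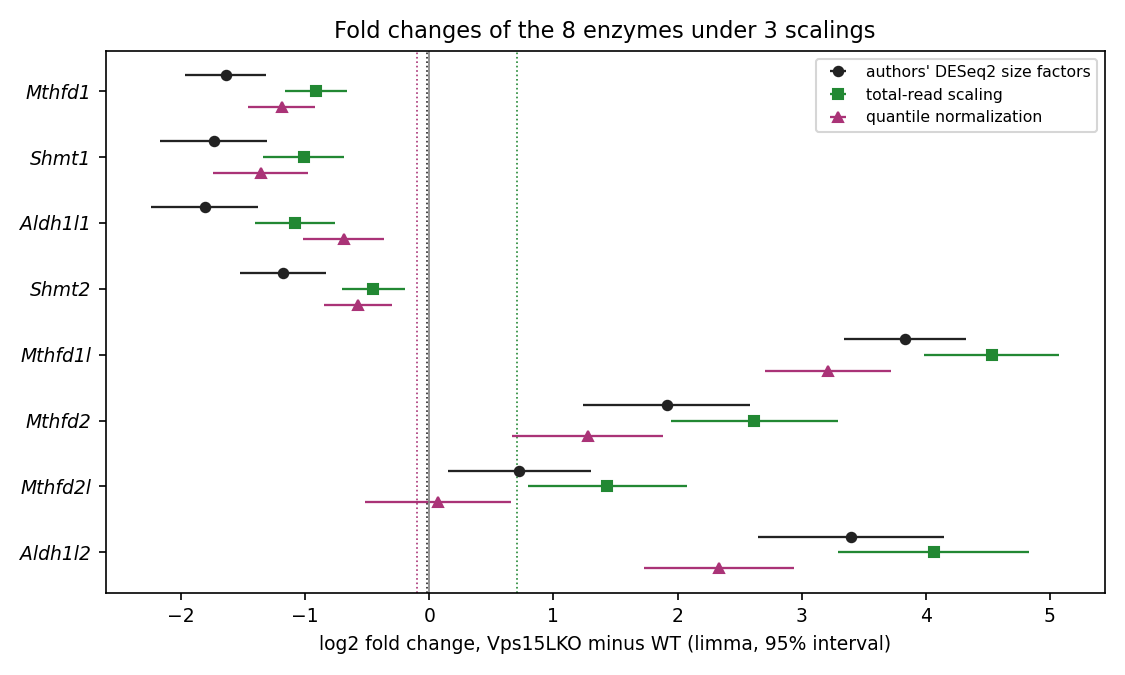
Log2 fold change of each enzyme, Vps15LKO minus WT, with its 95% confidence interval, under the authors' size factors, total-read scaling and quantile normalization, with dotted lines at the median of all genes tested under each. The 4 falls stay below 0 and the rises of Mthfd1l, Mthfd2 and Aldh1l2 above 0 in each, whereas Mthfd2l comes to 0.07 under quantile normalization.

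Per kilobase of exon, the 8 transcripts fell into an abundant and a scarce set in WT livers. The median level was 6215 normalized counts per kilobase for Aldh1l1, 1935 for Shmt2, 959 for Mthfd1 and 886 for Shmt1. It was 6.84 for Mthfd2, 4.87 for Mthfd2l, 3.10 for Mthfd1l and 0.898 for Aldh1l2. Neighbours in this order did not overlap across the 3 WT livers, except Mthfd1 and Shmt1. In Vps15LKO livers the order of the abundant set was the same, with medians of 1816, 819, 293 and 258 per kilobase. Among the scarce transcripts Mthfd1l stood first at 53.4, followed by Mthfd2 at 28.5, Aldh1l2 at 10.2 and Mthfd2l at 6.95, and the last 2 overlapped. Even after their rise the 4 scarce transcripts were a small share of the summed level of the 8 members per kilobase, 0.131% to 0.235% in the WT livers and 2.24% to 3.94% in the Vps15LKO livers. With Shmt2 added, the mitochondrial share was 20.2%, 18.3% and 20.2% in WT and 27.9%, 28.7% and 30.4% in Vps15LKO livers, without overlap.

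Ratios within 1 liver change little when a library is multiplied by a single factor, though not under quantile normalization, and compared the mitochondrial with the cytosolic enzyme of each step. These were taken as log2 ratios of normalized counts, not corrected for length, so their differences between genotypes are read and not their levels. The Shmt2 to Shmt1 ratio averaged 0.84 ± 0.10 among WT and 1.40 ± 0.10 among Vps15LKO livers (SD over 3 livers each), a difference of 0.56 (SE 0.08). Shmt2 therefore fell by less than Shmt1 in each Vps15LKO liver relative to each WT liver. The Mthfd1l to Mthfd1 ratio differed by 5.48 (SE 0.33), the Mthfd2 to Mthfd1 ratio by 3.55 (SE 0.43) and the Aldh1l2 to Aldh1l1 ratio by 5.21 (SE 0.42), in each case toward the mitochondrial enzyme and without overlap. Quantile normalization, an alternative added after seeing the data, kept these directions at 4.40, 2.47 and 3.03, and gave 0.79 for Shmt2 to Shmt1. The Mthfd2 to Mthfd2l ratio, within mitochondria, differed by 1.19 (SE 0.47), but WT replicate 3 (0.31) lay above Vps15LKO replicate 3 (0.20). The ratios were not tested. An exact two-sided permutation test of 3 against 3 livers could not go below 0.1.

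**Figure D3:**
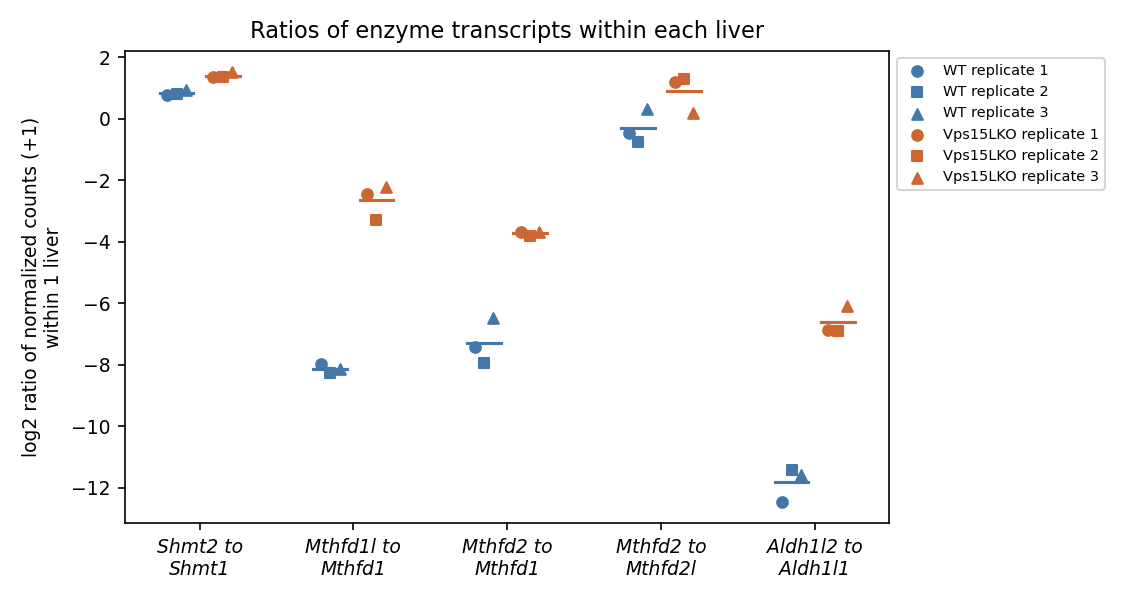
Log2 ratio of the normalized counts of paired enzymes within each liver, with a point per liver and a line at each group mean. The Mthfd2 to Mthfd2l ratio overlaps between the genotypes and the other 4 ratios do not, with the Mthfd1l to Mthfd1 ratio 5.48 higher in Vps15LKO livers on the log2 scale.

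Livers of 1 genotype also differed among themselves. Vps15LKO replicate 2 was the highest and replicate 3 the lowest of the Vps15LKO livers for all 4 members that fell and for Mthfd2. Replicate 3 was the highest for Mthfd1l, Mthfd2l and Aldh1l2. All 8 hepatocyte markers examined were highest in Vps15LKO replicate 2 and lowest in replicate 3, and all 6 cholangiocyte markers were highest in replicate 3. The order 2, 1, 3 was also that of 4 of 6 endothelial, 4 of 8 macrophage and 3 of 8 stellate cell and fibroblast markers. Vps15LKO replicate 3 was the highest for 9 of 12 markers of dividing cells and 5 of 8 stellate cell and fibroblast markers. Of 7 lymphocyte markers, 5 were highest in Vps15LKO replicate 1. In WT, replicate 3 was the highest for Mthfd2 and for 11 of 12 markers of dividing cells, among them Mki67, with normalized counts of 35.8, 43.7 and 146 across WT livers 1 to 3, against 1126 to 1159 in Vps15LKO livers. Without that liver the log2 fold change of Mthfd2 was 2.23 (adjusted p = 8.18e-05 in limma).

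The markers of other cells moved with genotype as well. The hepatocyte markers had summed normalized counts between 3111764 and 3431980 in the WT and between 1015740 and 1509860 in the Vps15LKO group. Of them 6 of 8 were called lower, all but Alb and Trf, and the median log2 fold change was −1.48. That median was −0.76 under total-read scaling, with 6 called lower, and −0.39 under quantile normalization, with 4 called lower, and edgeR called Alb lower as well (adjusted p = 0.00746). Cholangiocyte markers (6 of 6 called higher, median 3.28) had sums of 667 to 799 in WT and 11526 to 22590 in Vps15LKO livers, and markers of dividing cells (12 of 12 higher, median 3.02) had sums of 742 to 1099 and 4567 to 4974. Called higher were also 8 of 8 stellate cell and fibroblast markers (median 1.85, sums of 6652 to 7109 and 26241 to 30565), 6 of 8 macrophage markers (median 1.23, 6374 to 7237 and 15173 to 20388) and 4 of 5 tested lymphocyte markers (median 1.73, 86.2 to 119 and 217 to 261), the last with 2 higher and 1 lower under quantile normalization. Endothelial markers gave 3 higher and 3 lower (sums of 5996 to 6460.3 and 4747 to 6254), and 4 higher and 0 lower under total-read scaling. Cldn7 of the cholangiocyte list, Bub1 of the dividing-cell list and Cd3e, Cd8a and Nkg7 of the lymphocyte list passed the filter through the Vps15LKO livers alone, so their calls carry no weight. None of these markers was at 0 in all livers of a genotype. Their part in the changes of the folate enzymes was not tested. The deleted gene itself, Vps15 (Pik3r4 in the annotation), was measured at 507.8, 573 and 459.7 normalized counts in WT and 341, 362 and 355 in Vps15LKO livers (log2 fold change −0.54, SE 0.11, adjusted p = 0.00207 in limma), and under total-read scaling its change was 0.19 (adjusted p = 0.164). Its floxed exon was not counted apart, so the whole-gene count is a weak check of the labels.

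The enzymes that feed and drain the folate cycle were taken from 42 companion genes in 8 lists, of which 40 were tested. Of these, 8 were called higher and 26 lower, with a median log2 fold change of −0.87. Among all genes the median was −0.02, and 33.5% were called higher and 33% lower. The lists were chosen with earlier results of these data known, so this comparison is not a test. Total-read scaling gave 16 higher and 17 lower, against 66.7% and 11.1% of all genes, with a median of −0.15 where that of all genes was 0.70.

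Serine synthesis and its import into mitochondria held the largest rises. Phgdh, the first enzyme of serine synthesis, was measured at 3.98, 6.25 and 5.39 normalized counts in WT and at 102, 96.4 and 175 in Vps15LKO livers (log2 fold change 4.30, SE 0.30, adjusted p = 7.84e-06 in limma). Psat1, the next enzyme, was measured at 9.28, 3.75 and 31.0 in WT, highest in replicate 3 as Mthfd2 was, and at 313, 298 and 383 in Vps15LKO livers (4.83, SE 0.58, adjusted p = 0.000115 in limma). Phgdh passed the filter through the Vps15LKO livers alone, and Psat1 reached 20 normalized counts in 1 WT liver. Psph, which takes the last step, did not pass (0.05, adjusted p = 0.775 in limma), although it was called higher under total-read scaling (0.77). Of the mitochondrial serine carriers, Sfxn3 rose (2.62) and Sfxn1 fell (−1.02), the latter without a call under total-read scaling.

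Most genes of serine and glycine conversion or choline carbon supply were called lower, as were 33% of all genes (11.1% under total-read scaling). Of the 6 tested genes of serine and glycine breakdown, 5 were called lower under both the authors' and the total-read scaling, with a median log2 fold change of −1.85. Gnmt, which methylates glycine, was measured at 44506, 40275 and 26043 normalized counts in WT and at 4551, 6481 and 3256 in Vps15LKO livers (−2.97, SE 0.28, adjusted p = 3.46e-05 in limma), and Sds, which deaminates serine, had a log2 fold change of −2.52. All 7 genes that supply carbon from choline and betaine were called lower, 6 of them under total-read scaling. Their median was −1.98, with Sardh, the sarcosine dehydrogenase, at −2.44. All 4 genes of the glycine cleavage system (Gldc, Amt, Gcsh and Dld) were called lower, at −0.82 to −1.34, but only 1 of them under total-read scaling.

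Genes that use the folate-bound carbon gave mixed values, where 33.5% of all genes were called higher and 33% lower. Under total-read scaling 66.7% of all genes were called higher and 11.1% lower. Of 5 genes that use or recover formyl- and formimino-folate, 1 was called higher and 3 lower, and under total-read scaling 3 were called higher and 1 lower. Tyms of thymidylate synthesis was called higher (0.51, adjusted p = 0.008 in limma) but not under quantile normalization (0.14). Atic, which takes the last steps to the purine nucleotide IMP, rose (0.51, adjusted p = 0.00188 in limma). Gart, the earlier formyl-folate user of purine synthesis, was called lower (−0.29) and under total-read scaling higher (0.43). Ftcd, which brings the carbon of histidine to folate, fell (−1.94), and Mthfs, which brings a stored form of folate back into the cycle, was called lower (−0.94) but not under total-read scaling. Mtr and Mtrr of methionine synthesis did not pass (0.27 and 0.38), although total-read scaling called both higher (Mtr at 0.99). Of the 6 tested genes of folate uptake and retention, 1 was called higher and 4 lower (3 and 3 under total-read scaling). Fpgs, which adds the glutamate tail that keeps folate in the cell, fell (−1.78), as did the carriers Slc46a1 (−1.55) and Slc25a32 (−1.02). Slc19a1 was called lower (−0.36) and under total-read scaling higher (0.36), Ggh was called higher (0.45) but not under quantile normalization (0.31), and Folr2 did not pass (0.55, adjusted p = 0.0732 in limma) but was called higher under total-read scaling (1.28). Of formaldehyde oxidation, which also yields formate, Adh5 fell (−1.47) and Esd rose (0.64).

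**Figure D4:**
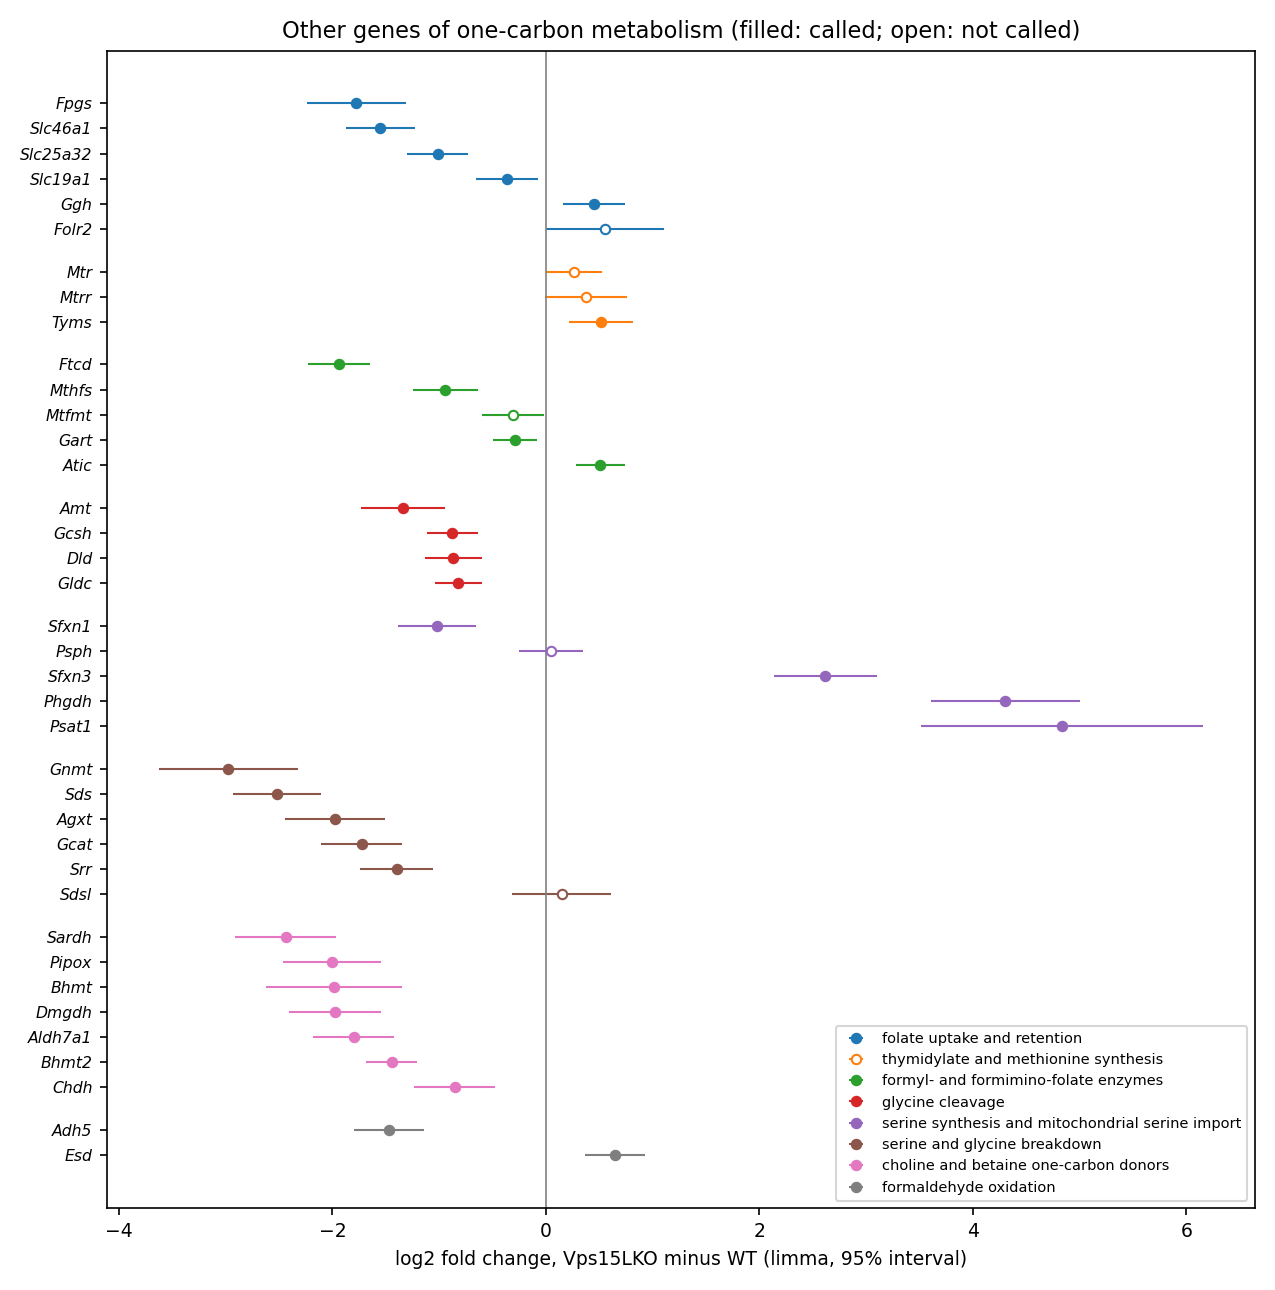
Log2 fold change, Vps15LKO minus WT, of companion genes by list, with 95% confidence intervals, under the authors' size factors (filled points were called, open points were not). Phgdh (4.30), Psat1 (4.83) and Sfxn3 (2.62) stand to the right. Genes listed under serine and glycine breakdown and under choline and betaine one-carbon donors lie mostly left of 0.

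Mthfd2, Phgdh and Psat1 are known targets of the stress factor Atf4, so a list of 12 Atf4 programme genes was read beside them. Of these, 9 were called higher and 0 lower, with a median log2 fold change of 1.23, where 33.5% of all genes were called higher. The list was chosen with earlier results of these data known, so this count is not a test. Slc7a11, a cystine carrier and 1 of the 9, was at 0 in all WT livers and passed the filter through the Vps15LKO livers alone. Atf4 itself, Trib3 and Chac1 did not pass (−0.21, −0.03 and 0.14). Under total-read scaling 12 of 12 were called higher (median 1.95, with 66.7% of all genes called higher), and under quantile normalization 7 (median 0.94). Asns, of asparagine synthesis, was measured at 78.2, 58.7 and 166 normalized counts in WT and at 212, 222 and 248 in Vps15LKO livers, with WT replicate 3 the highest WT liver again. Shmt2, also known as an Atf4 target, fell.

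Sequence upstream of the start was read from RefSeq windows on GRCm38.p6, which were found for 7 of the 8 members and not for Aldh1l2. The 250 bases upstream are shown for a pair that rose (Mthfd1l and Mthfd2) and a pair that fell (Mthfd1 and Shmt2), 5′ to 3′ on the strand of the gene, with each CCAAT box (CCAAT, or ATTGG on the other strand) in capitals. They lie at chr10:3972825-3973074 (plus), chr6:83317605-83317854 (minus), chr12:76254982-76255231 (plus) and chr10:127522445-127522694 (minus), in that order. The RefSeq starts need not be the outermost starts of the gene models used for the counts, and the windows of Mthfd2 and Aldh1l1 lie well inside those models.
Mthfd1l: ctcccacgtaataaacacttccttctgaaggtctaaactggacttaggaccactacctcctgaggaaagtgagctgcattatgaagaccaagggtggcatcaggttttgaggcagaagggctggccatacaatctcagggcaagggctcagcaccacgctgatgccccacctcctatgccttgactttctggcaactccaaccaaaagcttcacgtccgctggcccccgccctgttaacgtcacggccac
Mthfd2: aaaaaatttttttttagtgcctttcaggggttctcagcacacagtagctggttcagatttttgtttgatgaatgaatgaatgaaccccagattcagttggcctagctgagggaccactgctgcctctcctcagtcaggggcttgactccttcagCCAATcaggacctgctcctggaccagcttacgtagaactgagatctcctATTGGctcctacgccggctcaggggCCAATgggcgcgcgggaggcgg
Mthfd1: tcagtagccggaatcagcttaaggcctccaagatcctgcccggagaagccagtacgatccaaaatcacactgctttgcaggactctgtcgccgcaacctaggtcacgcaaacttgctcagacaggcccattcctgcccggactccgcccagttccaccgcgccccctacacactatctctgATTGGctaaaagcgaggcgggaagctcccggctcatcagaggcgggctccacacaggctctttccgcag
Shmt2: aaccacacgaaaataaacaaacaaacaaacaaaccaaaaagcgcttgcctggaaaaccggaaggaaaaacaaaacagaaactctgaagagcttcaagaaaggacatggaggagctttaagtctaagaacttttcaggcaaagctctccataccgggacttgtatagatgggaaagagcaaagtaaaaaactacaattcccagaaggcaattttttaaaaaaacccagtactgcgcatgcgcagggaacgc
The CCAAT box was chosen after these sequences were read. Mthfd2 holds 3 of them, at 96, 47 and 22 bases before its RefSeq start, Aldh1l1 holds 2, and Mthfd1 and Shmt1 hold 1 each, so that 4 of 7 members have the motif in either strand, as do 37.4% of all 32851 windows of 300 bases. It was present in members that rose and in members that fell. The E-box CACGTG, the sequence bound by Bmal1 and Clock, was found in 0 of the 7 member windows and in 7.15% of all windows. The composite element TGATGNAA that Atf4 can bind was likewise in 0 of 7 and in 3.97%, and the antioxidant response core TGACNNNGC in 0 of 7 and in 12.4%. Such a search says only that these letters are not in these windows.

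Genes with a pattern close to that of each member were taken by Pearson's r of log2 values over the 6 livers, among 11243 genes whose mean normalized count reached 100. Because the genotype sets most of the spread, high r is common, and 2726 genes passed 0.95 with Mthfd1, 2602 with Shmt2 and 2026 with Mthfd1l. Nearest to Shmt1 was Apoh, a plasma protein of hepatocytes, and then Hspa9, and nearest to Shmt2 was Serpinf1. Zdhhc9 came first for Mthfd1, Snx1 for Mthfd1l and Gm44250 for Aldh1l1. Mthfd2 passed 0.95 with 599 genes and was nearest to Spon2 (r = 0.998), which was measured at 202, 152 and 321 normalized counts in WT and at 927, 1070.5 and 847 in Vps15LKO livers. Mthfd2l passed 0.95 with only 46 genes, Xpnpep1 first (r = 0.992). Aldh1l2 passed 0.95 with 1757 genes, and its WT values rest on 3, 8 and 5 reads. It was nearest to Arrb1 and then to Lyz2, a lysozyme of macrophages. Normalized counts of Lyz2 were 888 to 1468 in WT livers and 5735 to 7084 in Vps15LKO livers.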

How the data were processed

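RNA of 3 WT and 3 Vps15LKO livers was sequenced, and groups came from the sample labels. The authors used SOAPnuke to filter the reads, HISAT2 to map them to GRCm38, featureCounts to count and DESeq2 to divide each library by a size factor. Tool versions and the strand setting are not given in the sources used here. The deposited values are therefore a signal, normalized counts, for 56305 genes. Every value was a whole multiple of the value of 1 read (tolerance 0.01), so whole reads could be recovered, 16137093 to 18110223 per library. The breeding was planned so that a litter held both genotypes, but no source used here ties a library to a litter, and p-values measure the spread between these livers.

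The 15430 genes with a normalized count of 20 or more in 3 or more livers entered a limma 3.58.1 fit (R 4.3.3) of log2(normalized count + 1), using lmFit and trended eBayes. P-values were adjusted over all of them by Benjamini-Hochberg. Fold changes are on that scale and understate low genes. Calls needed both an adjusted p below 0.05 and a change of 1.2-fold or more. The fit was tested on simulated data. Alternatives were other scalings, pseudocounts, filters and fold thresholds, limma without a trend, limma voom, edgeR 4.0.16 and DESeq2 1.42.0 on recovered reads, leaving out each liver and a replicate block. Gene models came from GENCODE M21 (GRCm38) and promoter windows from RefSeq (GRCm38.p6). Levels per kilobase use the union of exons.

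Named genes were all 8 members, 42 companion genes, marker lists, Vps15 and the 2 nearest genes of each member by correlation. Overlapping genes on the other strand were named for their position. The members and lists were chosen with earlier results of these data known. The transferrin marker was matched through its RefSeq synonym, and Gcat and Ddit3 each match a pair of Ensembl IDs, of which the lower was used. Folr1 and Tdh did not pass the filter. Some companion genes enter the counts over all lists but are not reported here by name.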

Additional observations from a re-analysis of the deposited data

How the results depend on the processing

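In all alternatives that tested them, 18 or 19 a gene, Mthfd1, Mthfd2, Shmt1, Shmt2 and Aldh1l1 kept their direction and their call, and no member reversed. Mthfd1l and Aldh1l2 did too, but the filter, shared by most alternatives, fixes their calls, which are no sign of stability. Mthfd2l lost its call in 6 of 19, and also where a fold of 2 was required, with log2 fold changes from 0.07 to 1.43 over all of them (adjusted p = 0.00117 to 0.817). The members called lower stayed at 4 throughout, while 11.1% to 37.8% of all genes were called lower. Those called higher numbered 3 to 4 when 1 liver was left out (30.1% to 33.4% of all genes), 3 at a fold of 2 (20.9%), and 1 where a normalized count of 20 was required in all 6 livers (27.9% of the 13101 genes left were called higher), because Mthfd1l, Mthfd2 and Aldh1l2 were then not tested. Companion genes called higher came to 16 and lower to 17 under total-read scaling, and higher to 4 at a fold threshold of 2. Leaving out 1 liver gave 8 to 9 higher and 24 to 26 lower. With a pseudocount of 10 the difference in the Mthfd1l to Mthfd1 ratio was 4.85 and that of Aldh1l2 to Aldh1l1 was 4.21, by construction closer to 0. Quantile normalization, added after seeing the data, gave 0.79 (Shmt2 to Shmt1), 4.40 (Mthfd1l to Mthfd1), 2.47 (Mthfd2 to Mthfd1) and 3.03 (Aldh1l2 to Aldh1l1), and the cause was not tested. With 1 liver left out the ratio differences were 0.50 to 0.61 (Shmt2 to Shmt1), 5.26 to 5.79 (Mthfd1l to Mthfd1), 3.22 to 3.96 (Mthfd2 to Mthfd1), 0.96 to 1.53 (Mthfd2 to Mthfd2l) and 4.90 to 5.41 (Aldh1l2 to Aldh1l1). Same-numbered livers of the genotypes did not deviate together (r = −0.01, −0.01 and 0.05 across genes), so the numbers were not taken as a pairing, and a replicate block gave 4 members higher and 4 lower, 9 companion genes higher and 25 lower, and 65.1% of all genes called. At 3 to 12 WT reads, the folds of Mthfd1l and Aldh1l2 are limited by counting.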
